A study of Mus musculus with 26 samples.

Results

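Open chromatin was described at the mouse genes for regulators of G protein signalling (RGS proteins) and for the alpha, beta and gamma subunits of heterotrimeric G proteins. Members were the protein-coding genes named Rgs, Gna, Gnb or Gng with a number or letter suffix, leaving out Rgs9, Gnal and Gng7, which are 3 relatives enriched in the striatum. The RefSeq gene table holds 49 such genes among 21887 protein-coding genes: 20 RGS genes, 15 alpha, 5 beta and 9 gamma subunit genes. A peak was assigned to 43 of the 49 in at least 1 of the 8 peak lists, and none was assigned to Rgs1, Rgs5, Rgs16, Rgs18, Gnat2 or Gng3.

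Nuclei of medium spiny neurons (MSNs), the projection neurons of the striatum, were profiled by ATAC-seq, in which a transposase cuts and tags accessible DNA. The labels name brain as the tissue and the study title the nucleus accumbens, and D1 and D2 MSNs are the classes that carry the dopamine receptors Drd1 and Drd2. The states were SC, acute cocaine, CS, a long withdrawal after chronic cocaine, CC, relapse to cocaine, and SS, the baseline. There were 4 D1 SC, 4 D1 CS, 4 D1 CC and 2 D1 SS libraries, and 1 D2 SC, 8 D2 CS, 1 D2 CC and 2 D2 SS libraries, 26 in all. Strain, age, sex, doses and the way the nuclei were sorted are not given in the sources used here. Each group has 1 list of peaks and no column per library, so replicate errors and p-values could not be computed, and each difference describes 2 lists.

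The lists differed in length, and values for lists reduced to their strongest 27917 peaks (equal length) are given beside part of the results that this moved. A gene or count printed without such values may have moved as well. D1 SC, CS and CC held 28321, 48469 and 77103 peaks, against 28579 in D1 SS, and D2 SC, CS and CC held 58810, 27917 and 68444, against 61818 in D2 SS. Read totals are unknown. Among peaks with a q-value between 0.001 and 0.01, the median fold enrichment over the local background of the peak caller was 2.59 to 3.8 and highest in D1 SC. The lists were also split by their number of peaks on patch scaffolds of the assembly, with a cut at 20 chosen here. There were 71 to 144 in D2 CS and in the D1 lists of SC, CS and CC (patch-rich). D2 SC, D2 CC, D1 SS and D2 SS had 4 to 7 (patch-poor). The labels name no batch, and the reason for this difference is not given. D1 SC, CS and CC over D1 SS, D2 CS over D2 SS and D1 CC over D2 CC cross these sets, and there the set cannot be told apart from the group. Drd1 had a promoter peak in all 8 lists. Drd2 had 518, 1585 and 2554 bp covered in D1 SC, CS and CC, against 0 in D1 SS. Of 10 D2 MSN marker genes 7, 7 and 8 had a peak in those lists, against 1 in D1 SS, and 8 had one in each D2 list. Of 10 D1 MSN marker genes 9 had a peak in each D1 list. In D2 SC, CS and CC 8, 8 and 9 of these had one, against 8 in D2 SS, so these counts hardly separate the D2 lists from the D1 lists. Of 61 markers of other cell types, 13, 31 and 39 had a peak in D1 SC, CS and CC, against 11 in D1 SS, and 19, 15 and 24 in D2 SC, CS and CC, against 24 in D2 SS; their part in the results was not tested.

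As background, a receptor activated by dopamine, opioids or acetylcholine loads GTP on a G alpha subunit, which parts from the G beta-gamma dimer, and both act on effectors such as adenylyl cyclases, phospholipases and potassium channels. RGS proteins speed the hydrolysis of GTP by G alpha and so end the signal. The R4 family are small RGS proteins, the RZ family acts on Gz and Gi, the R7 family works in neurons as a dimer with the beta subunit Gnb5, and the R12 family holds the multidomain scaffolds Rgs12 and Rgs14 beside the small Rgs10. In MSNs, D1 receptors couple to stimulatory and D2 receptors to inhibitory G alpha subunits.

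Promoters of members ranged from open in every list to closed in every list, and 6 of them are printed because the results below turn on them. Each is the 250 bases before a RefSeq start site (GRCm38.p6, 5′ to 3′ on the strand of the gene), with the CG dinucleotides in capitals. The promoters of Rgs2, a regulator of Gq signalling whose transcription is rapidly induced by neuronal activity, and of Gnai1, an inhibitory alpha subunit, had a peak in all 8 lists. The start of the beta subunit Gnb1 lay in a peak in 7 lists and not in D1 SS, as did this start of Rgs8, an R4 protein of neurons. Rgs21, an R4 gene known from taste cells, and Rgs16, another R4 gene, had a promoter peak in none.
Rgs2, chr1:144004150-144004399, minus strand: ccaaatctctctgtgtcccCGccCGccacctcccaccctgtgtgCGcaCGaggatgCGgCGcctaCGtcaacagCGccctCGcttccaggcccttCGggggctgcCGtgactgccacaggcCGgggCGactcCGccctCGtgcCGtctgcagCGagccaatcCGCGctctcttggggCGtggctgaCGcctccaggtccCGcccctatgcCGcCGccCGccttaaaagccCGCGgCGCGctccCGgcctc
Gnai1, chr5:18360414-18360663, minus strand: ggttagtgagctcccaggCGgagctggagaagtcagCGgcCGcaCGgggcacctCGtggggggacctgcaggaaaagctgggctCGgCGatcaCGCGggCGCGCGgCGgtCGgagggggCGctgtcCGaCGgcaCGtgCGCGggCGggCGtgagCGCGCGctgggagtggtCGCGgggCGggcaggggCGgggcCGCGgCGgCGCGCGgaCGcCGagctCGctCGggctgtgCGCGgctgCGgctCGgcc
Gnb1, chr4:155491111-155491360, plus strand: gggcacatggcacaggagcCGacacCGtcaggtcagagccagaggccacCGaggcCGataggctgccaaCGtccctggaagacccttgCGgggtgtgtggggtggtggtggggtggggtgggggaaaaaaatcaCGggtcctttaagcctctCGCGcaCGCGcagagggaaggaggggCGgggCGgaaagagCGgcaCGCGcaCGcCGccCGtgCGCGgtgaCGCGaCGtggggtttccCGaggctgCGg
Rgs8, chr1:153652787-153653036, plus strand: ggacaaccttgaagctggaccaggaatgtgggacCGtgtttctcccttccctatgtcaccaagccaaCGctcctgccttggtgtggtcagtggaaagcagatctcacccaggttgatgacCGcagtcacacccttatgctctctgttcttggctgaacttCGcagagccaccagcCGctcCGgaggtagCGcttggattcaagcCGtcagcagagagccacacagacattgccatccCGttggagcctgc
Rgs21, chr1:144567668-144567917, minus strand: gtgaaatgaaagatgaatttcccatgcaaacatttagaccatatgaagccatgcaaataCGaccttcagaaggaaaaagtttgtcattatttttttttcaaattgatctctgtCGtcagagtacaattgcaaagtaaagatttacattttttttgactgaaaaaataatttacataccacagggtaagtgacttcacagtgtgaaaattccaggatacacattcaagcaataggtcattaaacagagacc
Rgs16, chr1:153740103-153740352, plus strand: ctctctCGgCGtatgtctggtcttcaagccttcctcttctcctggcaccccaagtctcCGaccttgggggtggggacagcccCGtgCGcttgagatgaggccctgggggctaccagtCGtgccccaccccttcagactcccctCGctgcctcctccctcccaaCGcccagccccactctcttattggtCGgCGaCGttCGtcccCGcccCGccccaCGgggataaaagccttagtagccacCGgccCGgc

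A promoter peak, defined as a peak whose centre lies within 1000 bp of the start of the transcript that the authors assigned it to, was found in all 8 lists for 23 members, in 1 to 7 lists for 15 and in none for 11. In D1 SC, CS and CC, 30, 34 and 36 of the 49 members had one, against 23 in D1 SS. In D2 SC, CS and CC, the counts were 30, 29 and 31, against 32 in D2 SS. At equal length they were 30, 30 and 27 in D1 SC, CS and CC, against 23 in D1 SS. In D2 SC, CS and CC they were then 22, 29 and 23, against 25 in D2 SS. Among all protein-coding genes the share was 44.9% in D1 SC, 51.2% in D1 CS, 53.5% in D1 CC, against 38.9% in D1 SS, and 47.5% in D2 SC, 46.2% in D2 CS and 49.2% in D2 CC, against 49% in D2 SS. The members' share was above that of all genes in each list, at 46.9% in D1 SS and 59.2 to 73.5% in the others. A peak is assigned to 1 gene only, so the start sites were also searched by position for any peak, an alternative added after the data were seen. By position, 26 members had a peak at a start site in all 8 lists, 13 in 1 to 7 and 10 in none, and counts per list were 26 to 37, while 45.1 to 60.8% of all genes had one.

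**Figure D1:**
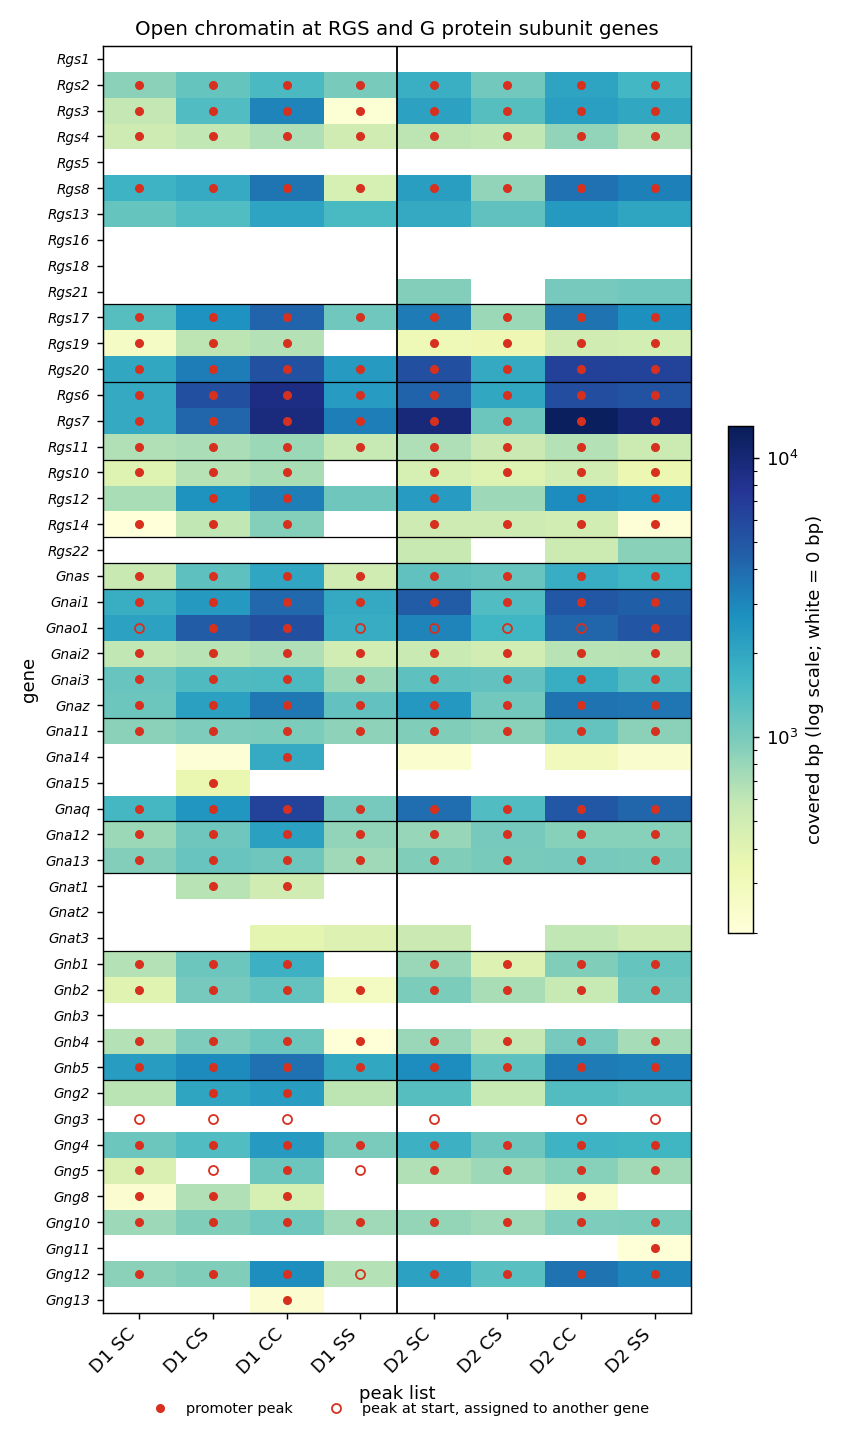
Covered bp (colour, log scale, white for 0 bp) of each member (rows, grouped by family) in the 8 peak lists (columns). Filled circles mark a promoter peak and open circles a peak at the start site that the authors assigned to a neighbouring gene; the D1 SS column has the fewest filled circles, 23, and the D1 CC column the most, 36.

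Among the RGS genes, all 3 of the R7 family, Rgs6, Rgs7 and Rgs11, had a promoter peak in all 8 lists. The 3 RZ genes were close to this: Rgs17 and Rgs20 had one in all 8 lists and Rgs19 in all but D1 SS. At equal length Rgs11 had 0 bp covered in D2 CC. Rgs19 had 263, 610 and 651 bp covered in D1 SC, CS and CC, against 0 in D1 SS, and 314, 324 and 500 bp in D2 SC, CS and CC, against 475 in D2 SS. At equal length Rgs19 had 263 and 610 bp in D1 SC and CS, 324 bp in D2 CS and 0 in the remaining lists. The R12 genes showed no peak at all at their promoters in D1 SS. Rgs12 had none in D1 SC and D2 CS either, so its absence was shared by the 3 shortest lists. Rgs10, which is abundant in microglia but also present in neurons, had 414, 642 and 712 bp in D1 SC, CS and CC, against 0 in D1 SS, and Rgs14, known from hippocampal neurons, had 200, 594 and 918 bp, against 0 in D1 SS. In the D2 lists Rgs10 had 464, 414 and 483 bp in SC, CS and CC, against 338 in SS, and Rgs14 had 519, 522 and 488 bp, against 212 in SS. At equal length Rgs10 had 414 bp in D1 SC and in D2 CS and 0 in the remaining lists. Rgs14 then had 200, 594 and 522 bp in D1 SC, D1 CS and D2 CS and 0 in the remaining lists. Of the 10 microglia markers, 2, 3 and 4 had a peak in D1 SC, CS and CC, against 1 in D1 SS, and the part of such cells in the Rgs10 values was not tested.

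The R4 family divided into open and closed members. Rgs2, Rgs3, Rgs4 and Rgs8 had a promoter peak in all 8 lists, and Rgs1, Rgs5, Rgs13, Rgs16, Rgs18 and Rgs21 in none. Rgs2 had 873, 1164 and 1467 bp covered in D1 SC, CS and CC, against 1014 in D1 SS, and 1751, 1067 and 2068 bp in D2 SC, CS and CC, against 1561 in D2 SS. Rgs4, a regulator of Gi and Gq in forebrain neurons, varied little, with 516, 587 and 674 bp in D1 SC, CS and CC, against 502 in D1 SS, and 610, 593 and 833 bp in D2 SC, CS and CC, against 663 in D2 SS. At Rgs8, the start printed above lay in a peak in 7 lists and not in D1 SS, where the gene had 2 promoter peaks, both at other starts. The closed genes include Rgs5, a marker of pericytes, Rgs18 of platelets, and Rgs1 and Rgs13 of lymphocytes. For Rgs1, Rgs5, Rgs16 and Rgs18 no list had a peak anywhere within the gene or 1 kb around it.

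Rgs2, Rgs13, Rgs1, Rgs21 and Rgs18 lie in this order on chromosome 1 between 143999338 and 144775427 (mm10), with gaps of 67.3 to 270.6 kb between them. Of these genes, Rgs2, Rgs13 and Rgs21 had assigned peaks; the intergenic stretches were not analysed here. Rgs13, with no promoter peak, held 2 regions in its body in all 8 lists, at chr1:144151628-144152597 and chr1:144168798-144169507, and 2, 2 and 4 elements in all in D1 SC, CS and CC, against 3 in D1 SS. Rgs21 held 2 elements over 940 bp in D2 SC and 1025 bp in D2 CC, against 1083 bp in D2 SS, and none in D2 CS or in any D1 list. At equal length Rgs21 kept 1 element in D2 SC (516 bp) and 1 in D2 SS (506 bp), and had 0 in D2 CC. D2 SC and D2 CC are lists of 1 library each. The authors' fold enrichment of the Rgs21 elements in the whole lists was 3.73 to 5.67. These elements are given by position, and their distance of 23596 to 28109 bp is to the start of the assigned transcript, which lies inside the RefSeq gene. In other neighbour pairs of the chromosome an open gene lies beside a closed one: Rgs8 and Rgs16 are 42.7 kb apart, and Rgs4 and Rgs5 45.7 kb.

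**Figure D2:**
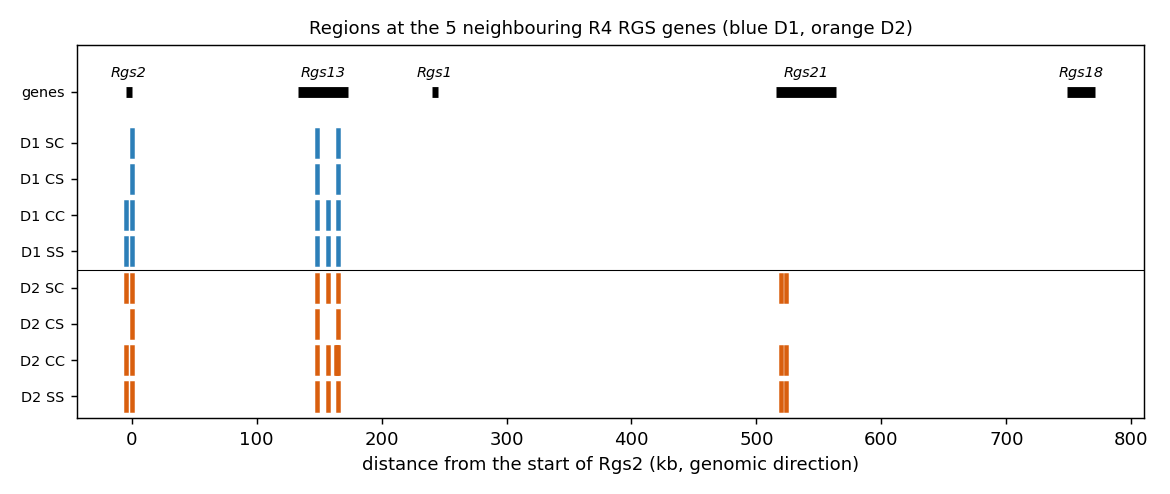
Merged regions of 5 neighbouring R4 genes (black bars) in the 8 peak lists (rows, D1 in blue, D2 in orange), by distance in kb from the start of Rgs2. With the whole lists, regions at Rgs2 and Rgs13 appear in every row, and those at Rgs21 only in the D2 SC, D2 CC and D2 SS rows.

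Most alpha subunit genes of the widely expressed families were open at the promoter in all lists. This held for Gnas, the stimulatory subunit, for Gnai1, Gnai2 and Gnai3 (inhibitory), Gnaz, for Gnaq and Gna11 (coupled to phospholipase C) and for Gna12 and Gna13. Gnao1, the Go subunit abundant in brain, had an assigned promoter peak in 3 lists only, D1 CS, D1 CC and D2 SS, but the peak at its start was present in all 8. In the other 5 lists the authors assigned it to the neighbour 4930488L21Rik. The promoter peak of Gnaz ranked high within each list, at percentile 79.2 to 96.4 of all promoter peaks by the authors' fold, and that of Gna12 at 73.3 to 93%. Gnai2 lay between percentile 9.4 and 65.6. At equal length Gnai2 had 0 bp covered in D2 SC.

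Alpha subunits known from other tissues were mostly closed. Gnat2, the transducin of cones, had no assigned peak, and Gnat3, the gustducin of taste cells, no promoter peak. Gnat1, the transducin of rods, had 631 bp in D1 CS and 506 bp in D1 CC, against 0 in the other 6 lists. Gna15, of blood cells, had 350 bp in D1 CS and 0 elsewhere. At equal length Gnat1 had 631 bp in D1 CS and 0 in the remaining lists, and Gna15 had 0 bp in every list. Gna14, a further subunit of the Gq class, had 0, 208 and 1898 bp in D1 SC, CS and CC, against 0 in D1 SS, and 228, 0 and 295 bp in D2 SC, CS and CC, against 237 in D2 SS. Its promoter peak was in D1 CC only, the longest list, at a fold of 3.25. At equal length Gna14 had 0 bp covered in every list.

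Among the beta subunits, Gnb2, Gnb4 and Gnb5 had a promoter peak in all 8 lists, Gnb1 in 7, and Gnb3, of cone photoreceptors, in none. Gnb1 had 654, 1123 and 1710 bp covered in D1 SC, CS and CC, against 0 in D1 SS, and 797, 426 and 945 bp in D2 SC, CS and CC, against 1175 in D2 SS. D1 SS was thus the only list without a peak at this start site, also by position. At equal length Gnb1 had 0 bp covered in D1 SS and also in D2 SC. Gnb2 then had 402, 271 and 703 bp in D1 SC, D1 SS and D2 CS and 0 in the remaining lists. Gnb5, the partner of the R7 family, had 2274, 2897 and 3718 bp in D1 SC, CS and CC, against 1989 in D1 SS, and 2845, 1252 and 3400 bp in D2 SC, CS and CC, against 3212 in D2 SS. The promoter peaks of Gnb2 were weak in every list, between percentile 3.1 and 14.8 by fold.

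Of the 9 gamma genes, Gng4 and Gng10 had an assigned promoter peak in all 8 lists, and Gng5 and Gng12 joined them by position. Gng3, a gamma subunit of neurons, had a peak at its start in 6 lists, D1 SC, CS and CC, D2 SC, D2 CC and D2 SS, all assigned to its neighbour Bscl2, and none in D1 SS or D2 CS. Gng5 lacked an assigned promoter peak in D1 CS and D1 SS, where the peak at its start was assigned to Spata1. Gng2 had a promoter peak in D1 CS and D1 CC only. Gng8 had 225, 660 and 462 bp in D1 SC, CS and CC, against 0 in D1 SS, and 242 bp in D2 CC, against 0 in D2 SC, CS and SS. Gng11, a subunit of vascular and other non-neuronal cells, had 205 bp in D2 SS only, and Gng13, of sensory and some brain neurons, 225 bp in D1 CC only. At equal length Gng8 had 225 and 660 bp in D1 SC and CS and 0 in the remaining lists. Gng11 and Gng13 then had 0 bp in every list.

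Intragenic elements, the peaks that the authors class as lying in a gene body, all more than 3000 bp from the assigned start, numbered 33, 65 and 111 over the members in D1 SC, CS and CC, against 41 in D1 SS, and 84, 24 and 107 in D2 SC, CS and CC, against 97 in D2 SS. The members took 0.502%, 0.4397% and 0.4127% of all intragenic elements in D1 SC, CS and CC, against 0.5574% in D1 SS, and 0.4437%, 0.4009% and 0.4614% in D2 SC, CS and CC, against 0.4846% in D2 SS. With every list reduced to its strongest 27917 peaks, the members held 32 in D1 CS, 33 in D1 CC, 41 in D2 SC and 35 in D2 CC, against 33 in D2 SS. The 3 shortest lists, of 27917 to 28579 peaks, held 33 in D1 SC and 24 in D2 CS, against 41 in D1 SS, as deposited. The number over all genes at equal length was not computed. Peaks 1 to 3 kb from a start were a class of their own, and counting those inside the gene as well gave 34, 68 and 116 in D1 SC, CS and CC, against 43 in D1 SS, and 86, 25 and 111 in D2 SC, CS and CC, against 99 in D2 SS. Per 100 kb of gene the members held 0.689 to 3.189 elements and all protein-coding genes 0.552 to 2.484, with the members higher in each of the 8 lists. Longer members held more elements: the Spearman rank correlation between length and number, over 49 genes of the same list, was 0.53 to 0.78.

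**Figure D3:**
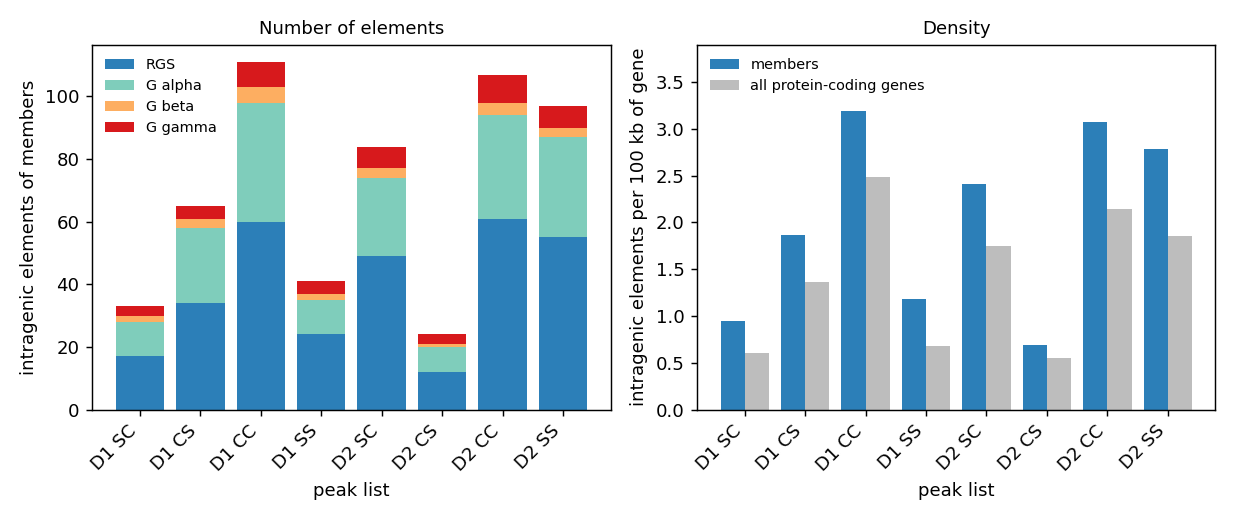
Left, intragenic elements of members in the 8 lists, stacked by family; right, elements per 100 kb of gene for members (blue) and for all protein-coding genes (grey). Both panels start at 0; D1 CC has 111 elements, the most, and D2 CS 24, the fewest.

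The R7 genes held the largest number of elements of any RGS family in every list, with 8, 19 and 32 in D1 SC, CS and CC, against 12 in D1 SS, and 25, 5 and 30 in D2 SC, CS and CC, against 28 in D2 SS. These counts are not scaled by gene length, and Rgs6 and Rgs7 are long, at 545511 and 433787 bp. Rgs7 alone (chr1:175059076-175492862) held 4, 9 and 16 in D1 SC, CS and CC, against 7 in D1 SS. In D2 SC, CS and CC it held 18, 1 and 21, against 17 in D2 SS. Its covered length was 1926, 4173 and 9343 bp in D1 SC, CS and CC, against 3294 in D1 SS, and 9617, 1126 and 12253 bp in D2 SC, CS and CC, against 10100 in D2 SS. D2 CS, a short list, was thus low and the other D2 lists high, and the D1 lists lay between. Of the 27 merged regions of Rgs7, 1 was in all 8 lists (its promoter), 10 were in D2 lists only and 2 in D1 lists only, while 16% of the regions of all protein-coding genes were in D2 lists only and 18.6% in D1 lists only. At equal length 7 regions of all members together were in D2 lists only, against 46 as deposited. The share over all genes at equal length was not computed.

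With lists of equal length Rgs7 held 4, 2 and 3 elements in D1 SC, CS and CC, against 7 in D1 SS, and 6, 1 and 5 in D2 SC, CS and CC, against 4 in D2 SS, so that D1 SS and D2 SC then had the most. Rgs6 (chr12:82616551-83162061), the longer relative, held 4, 10 and 16 elements in D1 SC, CS and CC, against 5 in D1 SS, and 7, 4 and 9 in D2 SC, CS and CC, against 11 in D2 SS. At equal length Rgs6 held 4, 6 and 6 elements in D1 SC, CS and CC, against 5 in D1 SS. In D2 SC, CS and CC it then held 4 each, against 3 in D2 SS. With the whole lists Rgs6 had 4 regions in all 8 lists, 5 in D1 lists only and 3 in D2 lists only. Per 100 kb, Rgs7 had 0.92 to 3.69 elements in the D1 lists and 0.23 to 4.84 in the D2 lists, and Rgs6 0.73 to 2.93 in the D1 lists and 0.73 to 2.02 in the D2 lists. The RZ gene Rgs20 held 4, 5 and 7 elements in D1 SC, CS and CC, against 5 in D1 SS, and 6, 2 and 8 in D2 SC, CS and CC, against 8 in D2 SS. Per 100 kb Rgs20 had 2.49 to 4.36 elements in the D1 lists and 1.24 to 4.98 in the D2 lists. This was above Rgs6 in each list and above Rgs7 in each list but D2 SC. At equal length Rgs20 held 4, 3 and 3 in D1 SC, CS and CC, against 4 in D1 SS. In D2 SC, CS and CC Rgs20 then held 5, 2 and 5, against 3 in D2 SS.

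Among the alpha genes, elements were concentrated in Gnao1, Gnaq and Gnai1. Gnao1 held 6, 8 and 9 in D1 SC, CS and CC, against 4 in D1 SS, and 6, 4 and 9 in D2 SC, CS and CC, against 10 in D2 SS. Among its 16 regions, 4 were in all 8 lists, including bodies at chr8:93838940-93839755, chr8:93884202-93884928 and chr8:93923636-93924274. Gnaq held 1, 5 and 12 elements in D1 SC, CS and CC, against 1 in D1 SS, and 7, 0 and 9 in D2 SC, CS and CC, against 8 in D2 SS. At equal length Gnaq had 0 or 1 element in each list. Gnai1 held 1, 4 and 6 in D1 SC, CS and CC, against 2 in D1 SS, and 6, 1 and 6 in D2 SC, CS and CC, against 6 in D2 SS. At equal length Gnai1 held 1, 1 and 3 in D1 SC, CS and CC, against 2 in D1 SS. It then held 3, 1 and 2 in D2 SC, CS and CC, against 2 in D2 SS. Gnao1 then held 5, 4 and 4 in D1 SC, CS and CC, against 4 in D1 SS. In D2 SC, CS and CC Gnao1 held 4, 4 and 3, against 3 in D2 SS.

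**Figure D4:**
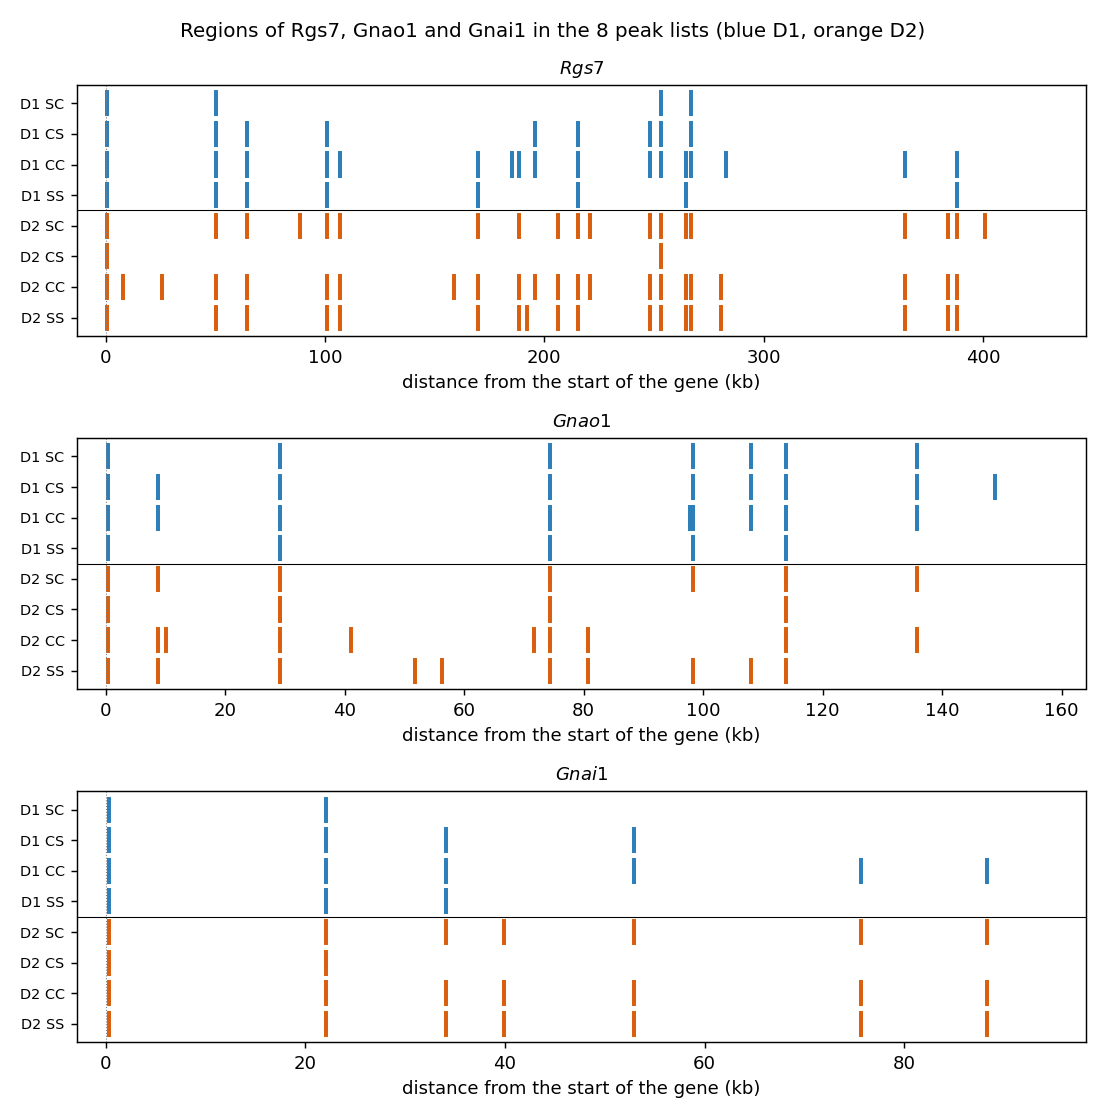
Merged regions (ticks) of Rgs7, Gnao1 and Gnai1 in the 8 peak lists (rows, D1 in blue, D2 in orange), by distance in kb from the RefSeq start of the gene. Rgs7 has the densest rows in D2 SC, D2 CC and D2 SS and 2 ticks in D2 CS, its promoter and 1 element; Gnao1 shows 4 columns filled in every row.

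Merging the peaks of all lists that overlap by at least 1 bp gave 94493 regions, of which 219 belonged to members. Of the 219, 47 (21.5%) were in all 8 lists, against 23.2% of the 54829 regions of all protein-coding genes, and 63 (28.8%) in 1 list, against 25.7%. By class, 27 of 54 promoter regions were in all 8 lists (50%, against 54.6% over all genes), 18 of 148 in gene bodies (12.2%, against 9.47%) and 2 of 17 lying 1 to 3 kb from a start (11.8%, against 9.59%). Of the 219, 39 (17.8%) were in a D1 list and no D2 list, against 18.6% of all, and 46 (21%) in a D2 list and no D1 list, against 16%. Exactly D1 CS and D1 CC held 5 regions (2.28%, against 2.48% of all), among them the starts of Gng2, Rgs12 and Gnat1.

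Exactly D2 SC, D2 CC and D2 SS held 7 regions (3.2%, against 2.64% of all), 2 of them in Rgs21, 2 in Rgs7 and 1 each in Rgs8, Rgs22 and Gnai1, all in gene bodies. In Rgs7 these were chr1:175108399-175108943 and chr1:175286419-175286978 as called in D2 SC, at a fold of 4.66 and 4.92. In Gnai1 the region had a fold of 4.28 in D2 SC and 4.07 in D2 CC, against 4.13 in D2 SS. The region of Rgs22, a gene known from testis, had a fold of 4.38 in D2 SC and 4.38 in D2 CC, against 4.2 in D2 SS, and that of Rgs8 was the weakest, at 2.11 to 2.82. None of the 7 kept this pattern with lists of equal length. These 3 D2 lists are also the long lists of the patch-poor set, so cell type, set and length cannot be told apart here.

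For the states, the covered share of a gene (its promoter and intragenic bp over the total of the list) was compared, with 200 bp added to each value, and a member was called past a 2-fold difference. In D1 SC over D1 SS, 7 of 35 members with coverage had a higher share, against 15.3% of all genes, and 1 a lower share, against 7.54%. The 7 were Gnb1, Gng5, Rgs10, Rgs8, Rgs19, Gng8 and Gnb4, with log2 ratios of 1 to 2.05, and the 1 was Gnat3, at 0 bp in D1 SC and 427 bp in D1 SS. Gng5 is among them because its peak was assigned to Spata1 in D1 SS. In D1 CS over D1 SS, 8 of 37 members were higher, against 22.6% of all genes, and 1 lower, against 4.15%. They were led by Gnb1 (log2 ratio 2.42), Gng8 (1.83) and Rgs10 (1.8). In D1 CC over D1 SS, 11 of 38 were higher, against 28.1%, and 2 lower, against 6.58%. Gna14 (2.89), Gnb1 (2.77) and Gng5 (2.27) led, and Rgs14, Rgs3, Rgs10, Rgs19, Gnat1, Gng8, Rgs8 and Gnaq followed. Gna14 had 0 bp in both lists at equal length, and Gng5 again had its D1 SS peak assigned to Spata1. The lower ones were Gnat3 and Gna11, although Gna11 had 981 bp in D1 CC and 865 bp in D1 SS, since its covered length differed less than the total of the list. At equal length 6 were higher and 1 lower in D1 SC over D1 SS, 8 and 3 in D1 CS over D1 SS, and 3 and 2 in D1 CC over D1 SS. With bp not divided by the list total, these were 8 and 1, 19 and 1, and 27 and 0. Here and below, the shares of all genes at equal length and with unscaled bp were not computed. Those counts therefore cannot be set beside all genes.

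Counted by promoter peaks, 7 members had one in D1 SC and not in D1 SS, and 0 the reverse, of 30 with a peak in either. Among all genes the shares were 17.2% and 4.39%. Between D1 CS and D1 SS, 11 of 34 had one in CS only, against 26.1% of all genes, and 0 in SS only, against 2.59%. Between D1 CC and D1 SS, 13 of 36 had one in CC only, against 29.4%, and 0 in SS only, against 2.48%. At equal length 7 members had a promoter peak in SC only and 0 in SS only, 8 in CS only and 1 in SS only, and 6 in CC only and 2 in SS only. By position, with the whole lists, 6, 10 and 11 had one in SC, CS and CC only, with Gnb1, Gng3, Gng8, Rgs10, Rgs14 and Rgs19 in each. Of all genes, 1721, 3055 and 3607 did. The number with a peak in either list was not counted by position. These are therefore not shares, and members cannot be set beside all genes by them. Because D1 SS is the control of all 3 comparisons, its missing peaks enter each of them. These comparisons cross the patch-rich and patch-poor sets.

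Within the patch-rich set, in D1 CC over D1 SC, 3 of 38 were higher (Gna14, Gnat1 and Gnat3), against 21% of all genes, and 1 lower (Gna11), against 6.19%. In D1 CC over D1 CS, 3 of 39 were higher (Gng5, Gna14 and Gnat3), against 8.96%, and 1 lower (Gna15), against 3.43%. In D1 CS over D1 SC, 2 of 37 were higher (Gnat1 and Gna15), against 14.1%, and 1 lower (Gng5), against 3.24%. The values for Gng5 follow from its assignment to Spata1 in D1 CS. The remaining members called here had at most 631 bp in either list, except Gna14 and Gna11. Gna14 had 1898 bp in D1 CC, and 0 bp there at equal length. Gna11 had 981 bp in D1 CC and 880 bp in D1 SC. The median log2 ratio of members was 0.02, -0.05 and -0.04 in these comparisons and that of all genes -0.16, -0.18 and -0.13. The direction depended on the scaling. At equal length 1 was higher and 5 lower in D1 CC over D1 SC, 2 and 4 in D1 CC over D1 CS, and 2 and 3 in D1 CS over D1 SC, and with unscaled bp 23 and 0, 8 and 1, and 11 and 1.

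In D2 MSNs, no member passed the 2-fold difference between acute cocaine and baseline. In D2 SC over D2 SS, 0 of 38 members were higher, against 3.52% of all genes, and 0 lower, against 6.01%. In D2 CC over D2 SS, 1 of 39 was higher (Gng8), against 4.81%, and 1 lower (Gng11), against 4.12%. In D2 CC over D2 SC, 1 of 38 was higher (Gng8 again), against 6.34%, and 0 lower, against 3.09%. Both Gng8 and Gng11 rest on a single peak of at most 242 bp. In D2 CS over D2 SS, which crosses the sets, 1 of 38 was higher (Rgs14), against 7.23%, and 4 lower, against 16.7%. The lower ones were Rgs21 (log2 ratio -2.34), Rgs22 (-2.12), Rgs7 (-2.04) and Gnat3 (-1.56). At equal length 0 were higher and 2 lower in D2 SC over D2 SS, 0 and 2 in D2 CC over D2 SS, 2 and 2 in D2 CC over D2 SC, and 4 and 3 in D2 CS over D2 SS. With unscaled bp these were 0 and 1, 1 and 1, 1 and 0, and 0 and 18.

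For promoter peaks the members' shares lay near those of all genes. Between D2 SC and D2 SS, 0 of 32 members had one in SC only, against 3.58% of all genes, and 2 in SS only (Gnao1 and Gng11), against 6.5%. Between D2 CS and D2 SS, 0 of 32 had one in CS only, against 5.86%, and 3 in SS only (Gnao1, Gng11 and Rgs12), against 11.3%. Between D2 CC and D2 SS, 1 of 33 had one in CC only (Gng8), against 4.9%, and 2 in SS only (Gnao1 and Gng11), against 4.51%. Gnao1 had a peak at its start in all of these lists by position. At equal length the direction turned between D2 CS and D2 SS, with 5 members in CS only and 1 in SS only. The counts were 0 and 3 between D2 SC and D2 SS and 0 and 2 between D2 CC and D2 SS. Whether all genes shifted likewise at equal length was not computed. D2 SC and D2 CC are lists of 1 library each.

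Between cell types, the same-set comparisons are those of withdrawal and of baseline. In D1 CS over D2 CS, 4 of 37 members were higher (Gng8, Gnat1, Gna15 and Rgs7), against 14% of all genes, and 1 lower (Gng5), against 3.86%. Rgs7 had 4173 bp in D1 CS and 1126 bp in D2 CS, a log2 ratio of 1.08. Promoter peaks were in D1 CS only for 6 of 35 members (Gna15, Gnao1, Gnat1, Gng2, Gng8 and Rgs12), against 13.4% of all genes, and in D2 CS only for 1 (Gng5), against 3.98%. By position Gnao1 and Gng5 had a peak in both lists. In D1 SS over D2 SS, 0 of 38 members were higher, against 2.85%, and 8 lower, against 21.4%: Gnb1 (-2.39), Rgs21 (-2.3), Rgs22 (-2.09), Gng5, Rgs3, Rgs19, Rgs8 and Rgs10. Gng5 is among them because its peak was assigned to Spata1 in D1 SS. Promoter peaks were in D1 SS only for 0 of 32, against 2.51%, and in D2 SS only for 9, against 22.7%. By position 7 members had one in D2 SS only, and 2472 of all genes did. These 2 counts are not shares and cannot be compared, since the number with a peak in either list was not counted by position. Gnao1, Gng12 and Gng5 then had a peak in both lists, and Gng3 joined those in D2 SS only. D1 SS is the shorter list, with 28579 peaks against 61818 in D2 SS. In D1 CC over D2 CC, which crosses the sets, 3 of 40 were higher (Gna14, Gnat1 and Gng13), against 11.5%, and 2 lower (Rgs21 and Rgs22), against 4.05%. At equal length 3 were higher and 4 lower in D1 CS over D2 CS, 1 and 5 in D1 SS over D2 SS, and 2 and 1 in D1 CC over D2 CC. With unscaled bp these were 13 and 1, 0 and 24, and 4 and 2. Promoter peaks at equal length were in D1 CS only for 4 members and in D2 CS only for 3, and in D1 SS only for 2 and in D2 SS only for 4.

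The CpG content of a promoter went with the number of lists in which it was open, in members and in all genes. RefSeq promoter sequence was at hand for 37 of the 49 members. The 21 with a peak at a start site in all 8 lists had 3 to 44 CpG dinucleotides in the 250 bases before the start (median 22), the 10 open in 1 to 7 lists 2 to 34 (median 10.5) and the 6 open in none 0 to 17 (median 3). The medians over all protein-coding genes were 19, 12 and 2. Rgs16 stood at the top of the closed members with 17 CpG, and Gnb5 at the bottom of the open ones with 3. Gnb1, Rgs10 and Rgs19, which lacked a peak in D1 SS alone with the whole lists, had 26, 27 and 34, above the median of the promoters open in all lists. At equal length these 3 genes had 0 bp covered in D2 SC as well. Where a gene has several starts, the window with the most CpG was used.

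**Figure D5:**
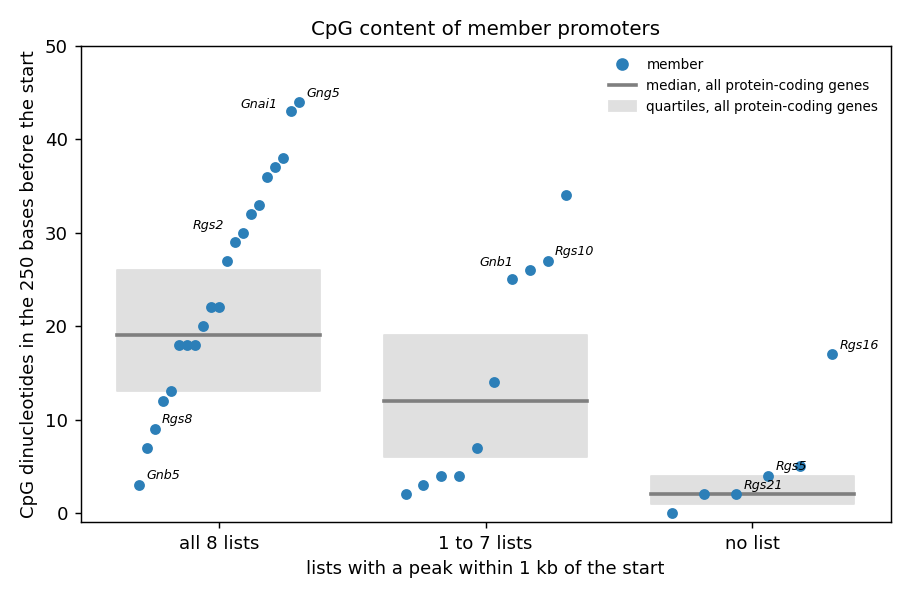
CpG dinucleotides in the 250 bases before the start of 37 members (points), grouped by whether a peak lay within 1 kb of a start in all 8, in 1 to 7 or in no list. Grey bands and lines give the quartiles and medians of all protein-coding genes (19, 12 and 2); the medians of the members were 22, 10.5 and 3.

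Motifs linked to activity-dependent transcription were searched on both strands in the 300 bases around each start, from 250 before to 50 after it. The full cAMP response element TGACGTCA was in 1.92% of all windows and in 0 of the 49 windows of members. Its core TGACG, which the full element contains, was in 20.2% of all windows and in 10 of members, at Gnas, Gnb1, Gng4, Rgs12, Rgs2, Rgs21, Rgs4 and Rgs8. The AP-1 site TGANTCA was in 6.13% of all windows and in 3 of members, at Gng2, Rgs12 and Rgs17. Each match is a description of letters, not of a bound site.

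Further genes of the pathway, 33 in all, were receptor kinases, arrestins, adenylyl cyclases, phospholipases C, G protein-gated potassium channels, guanine exchange factors, Gpsm genes and RGS anchors. Of these, 23, 24 and 26 had a promoter peak in D1 SC, CS and CC, against 17 in D1 SS. In D2 SC, CS and CC 21, 22 and 24 had one, against 23 in D2 SS. Over all protein-coding genes the share was 44.9%, 51.2% and 53.5% in D1 SC, CS and CC, against 38.9% in D1 SS. It was 47.5%, 46.2% and 49.2% in D2 SC, CS and CC, against 49% in D2 SS. Adcy5, the main adenylyl cyclase of the striatum, had 1704, 4478 and 5835 bp covered in D1 SC, CS and CC, against 1280 in D1 SS, and 3355, 2282 and 4869 bp in D2 SC, CS and CC, against 3108 in D2 SS. Rgs7bp, the membrane anchor of R7 proteins, had 3144, 4070 and 6138 bp in D1 SC, CS and CC, against 3689 in D1 SS, and 5925, 2694 and 8140 bp in D2 SC, CS and CC, against 6381 in D2 SS. Gpr158, a receptor-like anchor of Rgs7, had 1449, 3429 and 4781 bp in D1 SC, CS and CC, against 1632 in D1 SS, and 4511, 1683 and 4994 bp in D2 SC, CS and CC, against 3928 in D2 SS. Rgs9bp, the anchor used in the retina, had no peak in any list. The relatives left out of the members, Rgs9, Gnal and Gng7, had a promoter peak in all 8 lists.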

How the data were processed

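Peak lists from ATAC-seq of MSN nuclei were used, 1 per group. Per the submitters' processing notes, cutadapt, HISAT, SAMtools and MACS2 were used, with mm10 as the build; any pooling of libraries before peak calling is not given in the sources used here. Each peak's fold enrichment (a ratio) and q-value (at most 0.0453) were deposited by the authors, and the distance to the assigned start and the gene name are per the file headers. The lists hold 0 columns per library. Members were taken by name and counted in each list as promoter peaks (within 1000 bp), intragenic elements (the authors' gene-body class, over 3000 bp from the start) and covered bp; gene bodies were not split into exons and introns. Gene positions and promoter sequences came from RefSeq (GRCm38.p6). Of the 15172 protein-coding names in the lists, 14492 are in RefSeq. Covered shares were compared in 13 pairs of lists and promoter peaks in 8, with the main setting set beside all protein-coding genes. The other pairs were not analysed here. All members may be named, and in a comparison those past a 2-fold difference in share or with a promoter peak in 1 list only. Alternatives were a q of at most 1e-05, equal list length (27917 peaks), promoters within 2500 bp, a pseudocount of 1000 bp, all rows of a gene, and a reciprocal overlap of 50%; start sites by position, unscaled bp and elements with peaks 1 to 3 kb inside the gene were added after seeing the data. The members, lists and comparisons were chosen with earlier results of these data known. Steps were tested on data with known answers. Python 3.11.15, numpy 2.4.6 and pandas 2.3.3 were used.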

Additional observations from a re-analysis of the deposited data

Results flagged for a closer look

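Peaks that lie at the start of a member but are assigned to a neighbouring gene are outside the counts of assigned promoter peaks. This concerned Gnao1 in 5 lists (4930488L21Rik), Gng12 in 1 list (4930597O21Rik), Gng3 in 6 lists (Bscl2) and Gng5 in 2 lists (Spata1).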

How the results depend on the processing

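No paired analysis was possible because each group has 1 peak list with no column per library, and for the same reason no replicate could be left out. Members with a promoter peak per list kept within 1.5 times under all alternatives, but the order of the lists changed at equal length. D2 SC then had the fewest, 22, against 23 in D1 SS, and D1 SC and D1 CS the most, 30 each. D2 CS, the lowest D2 list as deposited, was then the highest of the D2 lists, at 29. Whether all genes changed likewise at equal length was not computed. Intragenic elements moved at equal list length to 32 in D1 CS, 33 in D1 CC, 41 in D2 SC and 35 in D2 CC, against 33 in D2 SS, where fewer peaks enter by construction, and kept within 1.5 times with peaks 1 to 3 kb inside the gene included.

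Counts of members past a 2-fold difference in share were small and moved most. The shares of all genes under these alternatives were not computed. With a pseudocount of 1000 bp they were 0 in D1 SC over SS, 0 in D1 CS over SS, 3 in D1 CC over SS, 1 in D1 CC over SC, 1 in D1 CC over CS, 0 in D1 CS over SC, 1 in D2 CS over SS, 0 in D2 CC over SS, 0 in D2 CC over SC, 1 in D1 CS over D2 CS, 2 in D1 CC over D2 CC and 0 in D1 SS over D2 SS. With unscaled bp they were 20 in D1 CS over SS, 27 in D1 CC over SS, 23 in D1 CC over SC, 9 in D1 CC over CS, 12 in D1 CS over SC, 1 in D2 SC over SS, 18 in D2 CS over SS, 14 in D1 CS over D2 CS and 24 in D1 SS over D2 SS, most of them in the direction of the longer list. At equal length they were 5 in D1 CC over SS, 5 in D1 CS over SC, 2 in D2 SC over SS, 4 in D2 CC over SC and 3 in D1 CC over D2 CC. At equal length more members were lower than higher, the other way round from the whole lists, in D1 CC over SC (1 higher, 5 lower), D1 CC over CS (2 and 4), D1 CS over SC (2 and 3) and D1 CS over D2 CS (3 and 4), and the reverse held in D2 CS over SS (4 and 3). In D2 CC over SC they were 2 and 2. At a q of at most 1e-05 they were 6 in D1 CS over SC, 1 in D2 SC over SS and 2 in D2 CC over SC.

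Members with a promoter peak in 1 list only numbered 4 between D1 SC and SS at the stricter q, 8 between D1 CC and SS (6 in CC only, 2 in SS only) and 6 between D2 CS and SS (5 in CS only, 1 in SS only, the other direction from the whole lists) at equal length, and 1 between D2 SC and SS by position. Regions in all 8 lists numbered 20 with a reciprocal overlap of 50%. At equal length there were 23 in 1 list, 23 in D1 lists only, 7 in D2 lists only, 0 in exactly D1 CS and D1 CC and 0 in exactly D2 SC, D2 CC and D2 SS, and at the stricter q 3 in exactly D1 CS and D1 CC. Unless stated, the cause was not tested. The read depth of the lists is unknown.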
